A study of Mus musculus with 7 samples.

Results

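The genes described here are 8 transcription factors known to set Kupffer cell or macrophage identity: Nr1h3, Spic, Id3, Maf, Zeb2, Tfec, Rbpj and Spi1. They were chosen by symbol from the deposited count table. All 8 had a row among its 20354 rows, and all 8 passed the low-count filter and were among the 14077 genes tested. RNA was sequenced from the nonparenchymal fraction of the liver, which is meant to leave hepatocytes behind, of untreated C57BL/6J mice aged 2 months. The knockout group (n = 3 libraries) is Shp2f/f:Clec4f-Cre+/-, in which Cre is driven by Clec4f, a gene that resident Kupffer cells express, and floxed Ptpn11, which encodes the tyrosine phosphatase Shp2, is deleted in them. The wild-type (WT) group (n = 4 libraries) is labelled only as WT, and whether those mice carry floxed alleles or Cre is not given in the sources used here. The genotype field of the knockout libraries names Shp1, Shp2 and Shp3 in turn while all their titles name Shp2, and the titles were followed. The comparison addresses how deleting Shp2 in Kupffer cells bears on the RNA of these factors in the whole nonparenchymal fraction. Because the fraction mixes cell types, fewer cells of a type and less RNA per cell cannot be told apart in any value given here.

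Kupffer cells are the resident macrophages of the liver sinusoids, and their identity is set by layers of factors. PU.1, encoded by Spi1, is the ETS-family factor that opens the enhancers of all macrophages, and c-MAF and ZEB2 work on top of it in many tissue macrophages. RBPJ is the DNA-binding effector of Notch receptors, which in mouse receive DLL4 from sinusoidal endothelial cells when monocytes take up an empty Kupffer cell niche. That signal and those of the TGF-beta and BMP family induce LXR-alpha, the oxysterol receptor encoded by Nr1h3, which maintains Kupffer cell enhancers. ID3, an inhibitor of basic helix-loop-helix proteins, is needed for Kupffer cells to develop in mouse. SPIC, another ETS factor, is induced by haem and serves iron-recycling macrophages, and TFEC is a macrophage member of the MiT family of basic helix-loop-helix factors. Several of these genes are also expressed outside macrophages, among them Id3, Maf, Zeb2 and Rbpj in endothelial or stellate cells.

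None of the 8 factors differed between knockout and WT libraries past the threshold, an adjusted p of 0.05 in edgeR's quasi-likelihood test with Benjamini-Hochberg adjustment over all genes tested. The share of all 14077 genes called was 0%, so the absence of a call among the 8 reads as it does for any gene in this comparison. On simulated counts edgeR recovered 18 out of 99 genes given a 2-fold shift, so a missing call does not exclude a change of that size. At an unadjusted p under 0.05 the test gave 1 of the 8, Zeb2, against 4.62% of all genes tested (650 genes). Fitted log2 fold changes, knockout over WT, were above 0 for 5 factors and below 0 for 3, with a median of 0.19 against 0.01 over all genes tested. For each of the 8 the range of the knockout libraries overlapped that of the WT libraries, while the groups did not overlap for 6.07% of all genes (3.03% with knockout above WT and 3.05% with knockout below). Adjusted p-values of the 8 lay between 0.956 and 0.993.

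**Figure D1:**
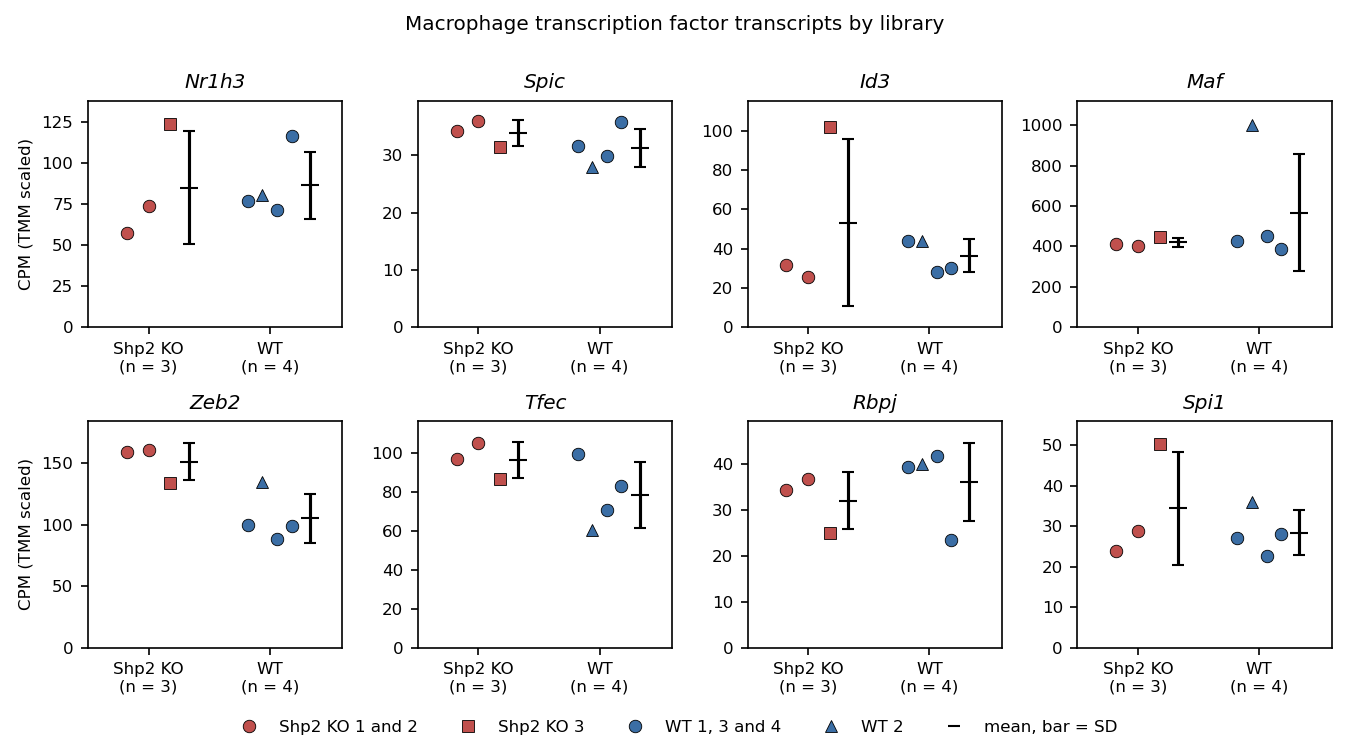
TMM-scaled CPM (counts scaled to a common library total) of each transcription factor, 1 panel per gene with its own axis, with a point for every library and the group mean with its SD beside it; knockout libraries are left of WT. The groups overlap in all 8 panels, and WT replicate 2 stands high for Maf (1001 CPM) and knockout replicate 3 for Id3 (102 CPM).

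The libraries held between 15263666 and 32003205 counts in the knockout group and between 11678385 and 26545605 in WT. Mitochondrial genes took 18.1% to 33.2% of counts in knockout and 17.3% to 22.4% in WT libraries, and the ribosomal RNA gene Rn18s took 7.54% in knockout replicate 3 against at most 0.122% in any other library. On the leading principal components (33.9% and 27.5% of the variance) knockout replicate 3 and WT replicate 2 lay away from the rest, so values without one or both of them are given where they turn a sign or move an estimate most. Ptpn11 itself, which cells other than Kupffer cells also express, was at 70.0, 79.5 and 86.2 CPM in knockout libraries, against 75.3, 95.5, 80.7 and 82.9 CPM in WT, so it does not check the labels in this mixture. Clec4f, the gene whose promoter drives Cre, was at 436, 454 and 865 CPM in knockout libraries and at 1638, 2656, 1386 and 1887 CPM in WT, a log2 difference of -1.69 ± 0.39 (SE; adjusted p = 0.487, edgeR) with no overlap. In edgeR its adjusted p missed the threshold, as that of every other gene did, and it passed in DESeq2 (adjusted p = 0.000213) and in limma voom with library quality weights (adjusted p = 0.0142).

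Promoter windows from RefSeq (GRCm38.p6, a build other than the GRCm39 of the counts) were at hand for 6 of the factors: Nr1h3, Spic, Id3, Zeb2, Tfec and Rbpj. The 250 bases upstream of each start were searched on both strands for the short cores bound by the factors themselves. These were GGAAGT for the ETS factors PU.1 and SPIC, TGGGAA for RBPJ, CACGTG for the MiT family, CACCTG for ZEB factors and TGCTGA for MAF proteins. The 4 windows shown are those of the factors that hold a core, with 1 window for each gene, so that the cores can be read in place. For Nr1h3 and Rbpj, which have more than 1 window, the one with more matches is shown. Each is printed 5′ to 3′ on the gene's strand, and capitals mark every match, on either strand. They are Spic at chr10:88683024-88683273 (minus strand), Tfec at chr6:16898442-16898691 (minus strand), Nr1h3 at chr2:91195117-91195366 (minus strand) and Rbpj at chr5:53590096-53590345 (plus strand).
Spic: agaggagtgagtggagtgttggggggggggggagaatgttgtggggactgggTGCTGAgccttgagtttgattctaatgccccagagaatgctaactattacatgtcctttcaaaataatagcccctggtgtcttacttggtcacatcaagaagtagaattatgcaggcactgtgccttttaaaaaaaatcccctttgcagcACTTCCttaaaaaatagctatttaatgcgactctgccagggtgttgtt
Tfec: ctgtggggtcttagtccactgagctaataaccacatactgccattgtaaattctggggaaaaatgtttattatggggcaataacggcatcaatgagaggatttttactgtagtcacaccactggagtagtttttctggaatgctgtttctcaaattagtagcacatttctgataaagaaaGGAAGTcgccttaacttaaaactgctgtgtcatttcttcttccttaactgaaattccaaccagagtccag
Nr1h3: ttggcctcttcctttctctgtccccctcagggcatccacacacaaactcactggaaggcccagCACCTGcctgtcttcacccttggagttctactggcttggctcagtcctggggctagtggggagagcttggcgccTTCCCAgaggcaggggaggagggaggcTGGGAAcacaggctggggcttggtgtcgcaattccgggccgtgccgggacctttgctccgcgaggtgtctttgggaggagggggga
Rbpj: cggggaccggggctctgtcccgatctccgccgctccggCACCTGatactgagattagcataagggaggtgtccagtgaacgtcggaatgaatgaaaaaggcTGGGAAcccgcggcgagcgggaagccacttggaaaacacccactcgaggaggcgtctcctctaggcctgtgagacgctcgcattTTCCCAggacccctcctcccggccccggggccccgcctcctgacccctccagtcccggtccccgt
The Spic window holds an ETS core on the opposite strand 48 bases before the start, counted to the first base of the match, and a MAF core at 198 bases. The Tfec window holds an ETS core at 70 bases. The Nr1h3 window holds RBPJ cores at 113 and 86 bases and a ZEB core at 187 bases, and the Rbpj window holds RBPJ cores at 149 and 65 bases and a ZEB core at 212 bases. Over 11 windows of the 6 genes, of which some of Nr1h3, Rbpj and Zeb2 overlap, the ETS core was in 2, the RBPJ core in 4, the ZEB core in 2, the MAF core in 1 and the MiT core in 0. Among all 32851 windows of the same length in the table, 19.7% held the ETS core, 21.6% the RBPJ core, 17.2% the ZEB core, 16.1% the MAF core and 6.02% the MiT core. No core was found in the windows of Id3 and Zeb2. Matches of this length are descriptions of the letters, not binding sites.

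Spi1, the gene of PU.1, was at 23.9, 28.9 and 50.3 CPM in knockout libraries, against 27.0, 35.9, 22.5 and 28.0 CPM in WT. Knockout replicate 3 was the highest of all 7 libraries and the other 2 knockout libraries lay within the WT range. The means were 34.3 ± 14.0 CPM in knockout and 28.4 ± 5.57 CPM in WT (SD, n = 3 and 4), with a log2 fold change of 0.27 ± 0.27 (SE; adjusted p = 0.956, edgeR). Without knockout replicate 3 the fold change was -0.11, so the sign rests on that library.

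Rbpj, the nuclear effector of Notch, was at 34.2, 36.6 and 25.0 CPM in knockout libraries and at 39.2, 40.0, 41.6 and 23.4 CPM in WT. WT replicate 4 was the lowest library and the other 3 WT libraries were the highest, so the knockout values fall between them. The log2 fold change was -0.17 ± 0.24 (SE; adjusted p = 0.956, edgeR), with a 95% interval of the fold from 0.61 to 1.28, and it was 0.031 without WT replicate 2 and knockout replicate 3. Rbpj-ps3, a pseudogene copy of Rbpj, had at most 7 counts in any library, so few reads were assigned to that row. Whether reads matching both genes were left out of the counts is not known, since the counting settings are not stated. The spans of the annotated antisense genes Gm10441 and Gm40304 overlap that of Rbpj, and whether their exons do was not examined. Because the library kit does not mark strand, reads from any shared exon could not be told apart.

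Nr1h3, the gene of LXR-alpha, was at 57.1, 74.0 and 123.7 CPM in knockout libraries, against 77.1, 80.4, 71.2 and 116.5 CPM in WT. The highest value of each group was well above the remaining ones, and the 2 groups span nearly the same range. These high libraries were knockout replicate 3 and WT replicate 4. Summed hepatocyte markers were lowest of all libraries in the former (18879 CPM) and highest in the latter (61644 CPM). The part of hepatocytes in the Nr1h3 values was not tested. The means were 84.9 ± 34.6 CPM in knockout and 86.3 ± 20.5 CPM in WT (SD). The log2 fold change of -0.02 ± 0.28 (SE; adjusted p = 0.993, edgeR) has a 95% interval of -0.65 to 0.61, and it turned positive with upper quartile scaling (0.012) and without knockout replicate 1, knockout replicate 2 or WT replicate 4 (0.18, 0.05 and 0.16). It was -0.40 without knockout replicate 3, -0.43 without that library and WT replicate 2, and -0.27 with voom and quality weights. The 95% interval of the fold over all 7 libraries, 0.64 to 1.52, gives no direction for Nr1h3, and 1 library moves the estimate. The spans of Gm13783, on the same strand, and of Gm23390, a small RNA gene on the opposite strand, overlap that of Nr1h3. Whether their exons overlap was not examined.

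Spic, the haem-induced ETS factor of iron-recycling macrophages, was at 34.3, 35.9 and 31.5 CPM in knockout libraries and at 31.6, 28.0, 29.9 and 35.8 CPM in WT. The highest library was 1.28 times the lowest, the narrowest spread of the 8 factors, and the groups overlap over most of their range. The means were 33.9 ± 2.25 CPM in knockout and 31.3 ± 3.32 CPM in WT (SD), and the log2 fold change was 0.11 ± 0.17 (SE; adjusted p = 0.960, edgeR). Its 95% interval, 0.83-fold to 1.41-fold, is the narrowest of the 8. Each single library was left out in turn and the fold change stayed between 0.06 and 0.18.

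Id3, the inhibitor of E proteins, was at 31.9, 25.8 and 102 CPM in knockout libraries, against 44.0, 43.9, 28.2 and 29.9 CPM in WT. Knockout replicate 3 was far above all other libraries, while knockout replicate 1 lay within the WT range and knockout replicate 2 just under it. The highest library was 3.95 times the lowest, the widest spread of the 8 factors. The log2 fold change was 0.54 ± 0.42 (SE; adjusted p = 0.956, edgeR), and without knockout replicate 3 it was -0.34, so the direction was set by 1 library. That library also carried the most Rn18s. With Rn18s and mitochondrial genes taken out of the table the fold change was 0.54 (SE 0.42). Taking out these rows does not test whether that library differs in RNA quality or composition.

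Tfec, the macrophage MiT factor, was at 96.4, 105.0 and 86.6 CPM in knockout libraries and at 99.1, 60.2, 70.6 and 82.7 CPM in WT. All 3 knockout libraries exceeded 3 of the 4 WT libraries, and WT replicate 1 lay among them. The means were 96.0 ± 9.18 CPM in knockout and 78.2 ± 16.7 CPM in WT (SD), with a log2 fold change of 0.30 ± 0.21 (SE; adjusted p = 0.956, edgeR). It stayed between 0.19 and 0.43 with any 1 library left out.

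Maf, the gene of c-MAF, was at 410, 403 and 447 CPM in knockout libraries, against 428, 1001, 454 and 390 CPM in WT. WT replicate 2 was far above all other libraries, and the remaining 6 lay within 390 and 454 CPM with the groups mixed. The log2 fold change of -0.44 ± 0.36 (SE; adjusted p = 0.956, edgeR) was -0.01 without WT replicate 2. In WT replicate 2 the summed level of 16 sinusoidal endothelial markers was 19067 CPM, against 6950 to 9018 CPM in the other WT libraries, and that of 15 general macrophage markers was 8870 CPM, against 4735 to 5527 CPM; the part of these cells in the Maf value was not tested. Gm15655 is annotated antisense to Maf with an overlapping span. Whether their exons overlap was not examined, and reads from any shared exon could not be told apart.

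Zeb2, the zinc-finger E-box repressor that helps keep tissue macrophages in their identity, was at 159.3, 160.7 and 133.8 CPM in knockout libraries and at 99.9, 134.3, 88.1 and 98.5 CPM in WT. The only overlap was between WT replicate 2 and knockout replicate 3, which differed by less than 1 CPM, and all other knockout values were above all WT values. The means were 151 ± 15.1 CPM in knockout and 105 ± 20.1 CPM in WT (SD, n = 3 and 4), a fold of 1.44 with a 95% interval of 1.05 to 1.97. The log2 fold change was 0.52 ± 0.21 (SE; unadjusted p = 0.0287, adjusted p = 0.956, edgeR), which ranked Zeb2 at 376 of 14077 genes by p. Without WT replicate 2 it was 0.66 (adjusted p = 0.747), and without that library and knockout replicate 3 it was 0.74 (adjusted p = 0.519). In those 5 libraries the knockout values lay above the WT values for 1 of the 8 factors, Zeb2, and for 12% of all genes tested. In either direction it was 25.3% of all genes, and 13.3% with knockout below. For Zeb2 this follows from leaving out the only libraries that overlapped, so it adds no separate support. The sign was positive in all 18 alternative analyses run, whose adjusted p ranged from 0.0788, in limma voom with library quality weights, to 1.00. The spans of Zeb2os and short RNA genes overlap that of Zeb2, and whether their exons do was not examined. Without strand, reads from any shared exon could not be separated.

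**Figure D2:**
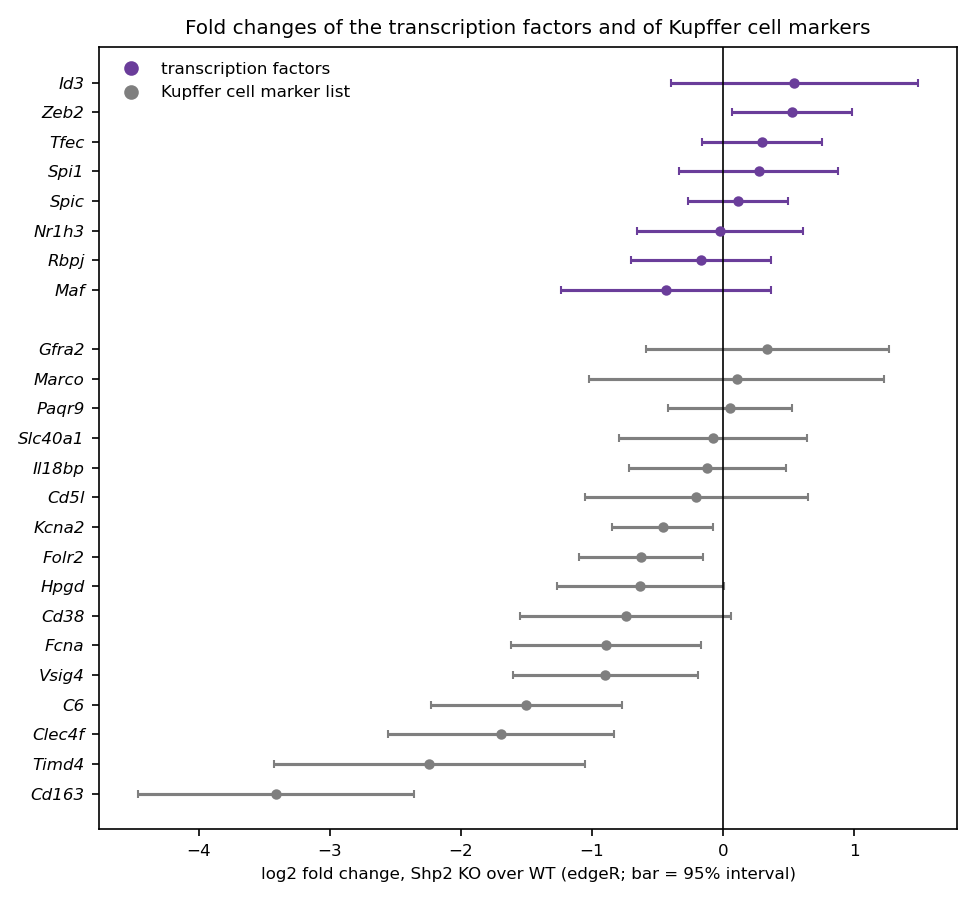
Log2 fold change, knockout over WT, with its 95% interval from edgeR for each transcription factor and, for scale, for Kupffer cell markers. The intervals of 7 of the 8 factors span 0 and that of Zeb2 runs from 0.07 to 0.98, while Clec4f (-1.69) and Cd163 (-3.41) lie to the left; no gene passed the adjusted threshold.

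**Figure D3:**
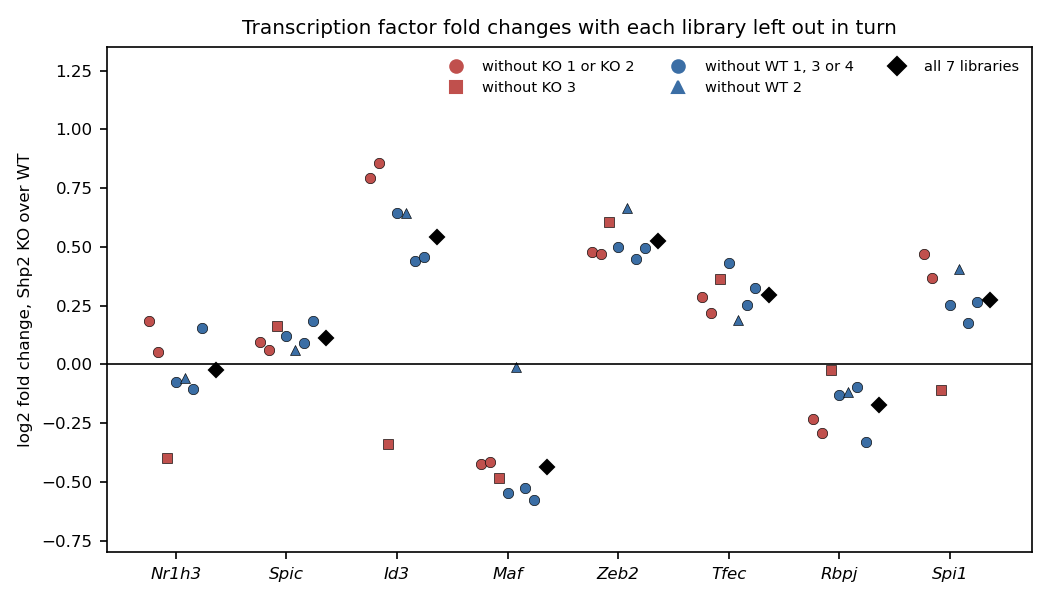
Log2 fold change, knockout over WT, of each transcription factor over all libraries and with 1 library left out at a time. Id3 and Spi1 move below 0 without knockout replicate 3 (-0.34 and -0.11), Maf moves to -0.01 without WT replicate 2, and Zeb2 stays between 0.45 and 0.66.

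The 16 Kupffer cell markers, set beside the factors, summed to 4780, 4667 and 5745 CPM in knockout libraries and to 7532, 12357, 6328 and 7494 CPM in WT, with no overlap. Clec4f, whose promoter drives Cre, supplied 436 to 865 CPM of it in knockout and 1386 to 2656 CPM in WT. The sum, and the ratios to it given below, therefore lean partly on that gene. At an unadjusted p under 0.05, edgeR gave 8 of the 16 lower and 0 higher, against 2.35% and 2.27% of all genes. Of the 16 fold changes, 13 were below 0, with a median of -0.63. The list was chosen with earlier results of these data known, so this contrast with all genes is a description, not a test. Cd163, the haemoglobin-haptoglobin receptor, had the smallest p of the list, at 21.0, 23.7 and 53.3 CPM in knockout libraries and 228, 593, 305 and 258 CPM in WT (log2 fold change -3.41 ± 0.47, SE; adjusted p = 0.184, edgeR). Cd163 passed the threshold in DESeq2 (adjusted p = 4.37e-12), in voom with quality weights (3.92e-05), and in edgeR with library size only (0.0250), scaled on general macrophage markers (0.0118), without the low-count filter (0.0301) and without WT replicate 2 and knockout replicate 3 (0.00554). The 95% intervals of the 8 factors reached no lower than -1.24, that of Maf, and that of Spic no lower than -0.27. The marker median of -0.63 lay inside the intervals of Maf, Rbpj (from -0.71) and Nr1h3 (from -0.65), and below those of the other factors. A fall of that size is thus not excluded for Maf, Rbpj and Nr1h3. The 15 general macrophage markers summed to 5081, 5419 and 6388 CPM in knockout libraries, against 5447, 8870, 4735 and 5527 CPM in WT, with 1 gene lower and 1 higher at an unadjusted p under 0.05 and a median of -0.25. In that list Adgre1, the gene of F4/80, had a log2 fold change of -0.59 ± 0.40 (SE; adjusted p = 0.956, edgeR), and Ms4a7, a gene of monocyte-derived macrophages, had the smallest p, with 31.3, 25.1 and 17.6 CPM in knockout and 14.3, 6.57, 10.1 and 14.9 CPM in WT (1.10 ± 0.31, SE; adjusted p = 0.733, edgeR).

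Since the fraction is a mixture, each factor was also expressed per 1000 CPM of the summed macrophage markers of its own library, a ratio described here without a test. A large part of the general macrophage sum came from Lyz2 (2258 to 2461 CPM in knockout, 1786 to 2063 CPM in WT). Mrc1 added 818 to 866 CPM in knockout and 775 to 2404 CPM in WT, so the ratio leans on these genes. Zeb2 was at 31.4, 29.7 and 21.0 per 1000 CPM of general macrophage markers in knockout libraries, against 18.3, 15.1, 18.6 and 17.8 in WT, with no overlap. On this scale Zeb2 was the 1 factor of 8 with all knockout libraries above WT, as were 2.58% of all genes, and none of the 8 had all of them below, as 1.3% of genes had; its log2 ratio of group means was 0.64. The log2 ratios of the others were 0.56 for Id3, 0.34 for Tfec, 0.34 for Spi1, 0.17 for Spic, -0.01 for Nr1h3, -0.09 for Rbpj and -0.25 for Maf, and the median of the 8 was 0.25 against 0.07 over all genes. Per 1000 CPM of Kupffer cell markers, whose sum was lower in knockout, 4 of the 8 (Spic, Zeb2, Tfec and Spi1) lay above WT in all knockout libraries, but so did 41% of all genes (0.213% lay below). Spic, for example, was at 7.17, 7.69 and 5.48 in knockout libraries and at 4.20, 2.27, 4.73 and 4.77 in WT. The median log2 ratio on that scale was 0.85 for the factors and 0.67 for all genes.

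**Figure D4:**
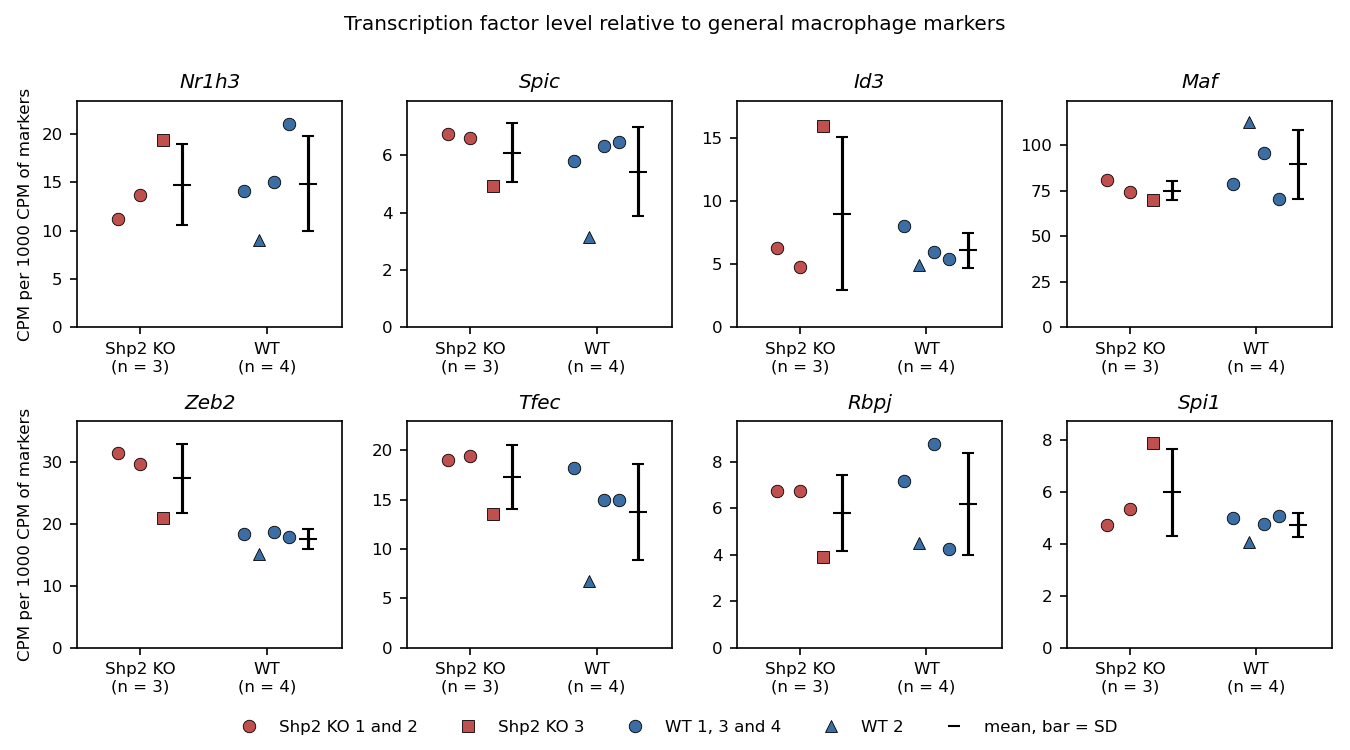
Level of each transcription factor per 1000 CPM of general macrophage markers in the same library, 1 panel per gene, knockout left of WT, with the group mean and its SD beside the points. Zeb2 is the panel in which all knockout libraries (21.0 to 31.4) lie above all WT libraries (15.1 to 18.6).

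Per kilobase of annotated exon (the union of exons in GENCODE M21), Maf was the most abundant factor, at 51.0 ± 2.85 CPM per kilobase in knockout and 68.9 ± 35.2 in WT libraries (SD). Nr1h3 followed at 33.8 ± 13.8 in knockout and 34.3 ± 8.14 in WT, and Id3 at 29.7 ± 23.6 in knockout and 20.4 ± 4.80 in WT. Tfec was at 17.2 ± 1.64 in knockout and 14.0 ± 2.99 in WT, and Spi1 at 12.7 ± 5.20 in knockout and 10.5 ± 2.07 in WT. Spic was at 8.82 ± 0.586 in knockout and 8.15 ± 0.863 in WT, Zeb2 at 7.59 ± 0.759 in knockout and 5.28 ± 1.01 in WT, and Rbpj at 2.50 ± 0.482 in knockout and 2.83 ± 0.665 in WT. The order of the means was the same in both groups. Over the 7 libraries each factor's range overlapped that of its neighbour in this order, except for Zeb2 (lowest 4.42) and Rbpj (highest 3.26). The exon union counts every annotated isoform, 19942 bases for Zeb2 and 12750 for Rbpj, so levels of genes with long rarely used exons are understated on this scale.

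Around Nr1h3, 17 partners and targets of LXR were tested, with 8 fold changes above 0, 9 below and a median of -0.06 (-0.25 without knockout replicate 3 and 0.089 without WT replicate 2). Srebf1, the lipogenic LXR target, had the smallest p and was the 1 gene of the list at an unadjusted p under 0.05, with 22.1, 22.2 and 51.9 CPM in knockout libraries and 15.1, 20.5, 11.7 and 17.7 CPM in WT (log2 fold change 0.98 ± 0.33, SE; adjusted p = 0.929, edgeR). Abca1, the cholesterol exporter and LXR target, was at 146, 148 and 126 CPM in knockout libraries and at 123, 432, 200 and 186 CPM in WT (-0.75 ± 0.38, SE; adjusted p = 0.956, edgeR). These LXR targets had fold changes of opposite sign, and neither passed the threshold.

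The SPIC and haem axis had 9 tested genes, 3 above 0 and 6 below, with a median of -0.08 (-0.23 without WT replicate 3 and 0.093 without WT replicate 2). Vcam1, the adhesion molecule that is lost with SPIC in mouse splenic red pulp macrophages, was at 110, 158 and 176 CPM in knockout libraries, against 331, 1258, 509 and 485 CPM in WT. No knockout library reached the WT range, and the log2 fold change was -2.13 ± 0.46 (SE; adjusted p = 0.419, edgeR). It missed the threshold in edgeR and passed it in DESeq2 (adjusted p = 0.000438, a test that called 0.469% of genes) and in limma voom with library quality weights (adjusted p = 0.0427, which called 0.0639%). Sinusoidal endothelial cells express Vcam1 too; their markers summed to 8326, 7814 and 11393 CPM in knockout and 9018, 19067, 7378 and 6950 CPM in WT, and their part in the Vcam1 values was not tested. Blvrb, the biliverdin reductase that works after haem breakdown, had a log2 fold change of 0.57 ± 0.32 (SE; adjusted p = 0.956, edgeR), with 27.6, 32.4 and 67.0 CPM in knockout and 30.7, 21.4, 23.7 and 38.2 CPM in WT.

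Of the 18 genes of the Notch pathway around Rbpj, 16 were tested, Jag2 and Nrarp being too low, with 11 above 0, 5 below and a median of 0.09. Single libraries turned that median, which was -0.19 without knockout replicate 3 and 0.20 and 0.25 without knockout replicates 1 and 2. None was at an unadjusted p under 0.05. Heyl, a Notch target, was at 3.79, 2.54 and 2.78 CPM in knockout and 2.39, 1.71, 2.33 and 2.19 CPM in WT (log2 fold change 0.51 ± 0.29, SE; adjusted p = 0.956, edgeR). Maml2, a coactivator of the RBPJ complex, was at 26.3, 26.6 and 26.4 CPM in knockout and at 27.2, 48.5, 29.6 and 24.01 CPM in WT (-0.29 ± 0.25, SE; adjusted p = 0.956, edgeR). For Maml2, WT replicate 2 was the high library, as for Maf.

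Among 23 genes of the ID family, E proteins and BMP and TGF-beta signalling, 8 were above 0 and 15 below, with a median of -0.06 (-0.13 without knockout replicate 3 and 0.083 without WT replicate 2) and none at an unadjusted p under 0.05. Tcf3, which encodes E proteins that ID3 holds off DNA, was at 4.91, 3.73 and 16.4 CPM in knockout libraries and 4.68, 4.97, 3.49 and 4.29 CPM in WT (log2 fold change 0.92 ± 0.46, SE; adjusted p = 0.956, edgeR). As for Id3, knockout replicate 3 was the high library. Bmpr1a, a BMP receptor, was at 21.7, 19.2 and 10.01 CPM in knockout and 23.7, 28.3, 20.9 and 26.2 CPM in WT (-0.54 ± 0.27, SE; adjusted p = 0.956, edgeR).

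The list of MAF paralogs and C1q genes had 7 tested genes, 3 above 0 and 4 below, and a median of -0.25. Maff, a small MAF protein without an activation domain, was at 2.39, 3.73 and 2.84 CPM in knockout libraries and at 3.94, 4.04, 8.39 and 5.38 CPM in WT, all WT libraries above all knockout ones (log2 fold change -0.86 ± 0.34, SE; unadjusted p = 0.0304, adjusted p = 0.956, edgeR). Leaving out knockout replicate 3 gave this list a median of -0.67, and leaving out WT replicate 2 gave -0.01.

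For the MiT family around Tfec, 10 genes were tested with 5 on each side of 0 and a median of 0.01, which was -0.33 without knockout replicate 3 and -0.15 with voom and quality weights. Ctsk, the lysosomal protease cathepsin K, was at 12.8, 11.1 and 7.91 CPM in knockout and at 24.3, 18.2, 11.5 and 11.1 CPM in WT (-0.61 ± 0.32, SE), and Mcoln1, a lysosomal cation channel, had a log2 fold change of 0.34 ± 0.23 (SE). Of 12 partners and targets of PU.1, 4 were above 0 and 8 below, with a median of -0.19 (0.017 without WT replicate 2), and Tyrobp, an adaptor of myeloid receptors (0.49 ± 0.30), and Csf1r, the M-CSF receptor (-0.65 ± 0.46), had the smallest p. Csf1r was at 237, 263 and 484 CPM in knockout and at 360, 1018, 303 and 374 CPM in WT, with WT replicate 2 the high library. The ZEB paralog and its corepressors gave 5 tested genes with a median of 0.01 (-0.20 without knockout replicate 3 and 0.16 without WT replicate 2), led by the histone deacetylases Hdac1 (-0.13 ± 0.22) and Hdac2 (-0.10 ± 0.19). In these 3 lists no gene was at an unadjusted p under 0.05 and adjusted p-values of the named genes were 0.956 to 0.974 in edgeR.

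Factors that set other tissue macrophages gave 11 tested genes, 4 above 0 and 7 below, with a median of -0.20 (-0.084 without WT replicate 2) and none at an unadjusted p under 0.05. Bhlhe41, a repressor used by alveolar macrophages, was at 5.97, 4.20 and 4.14 CPM in knockout libraries and at 3.46, 3.57, 2.58 and 3.15 CPM in WT, without overlap (log2 fold change 0.58 ± 0.27, SE; adjusted p = 0.956, edgeR). Gata6, the factor of peritoneal macrophages, was at 2.03, 2.07 and 0.989 CPM in knockout and 2.45, 2.02, 3.90 and 3.32 CPM in WT (-0.76 ± 0.38, SE; adjusted p = 0.956, edgeR).

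**Figure D5:**
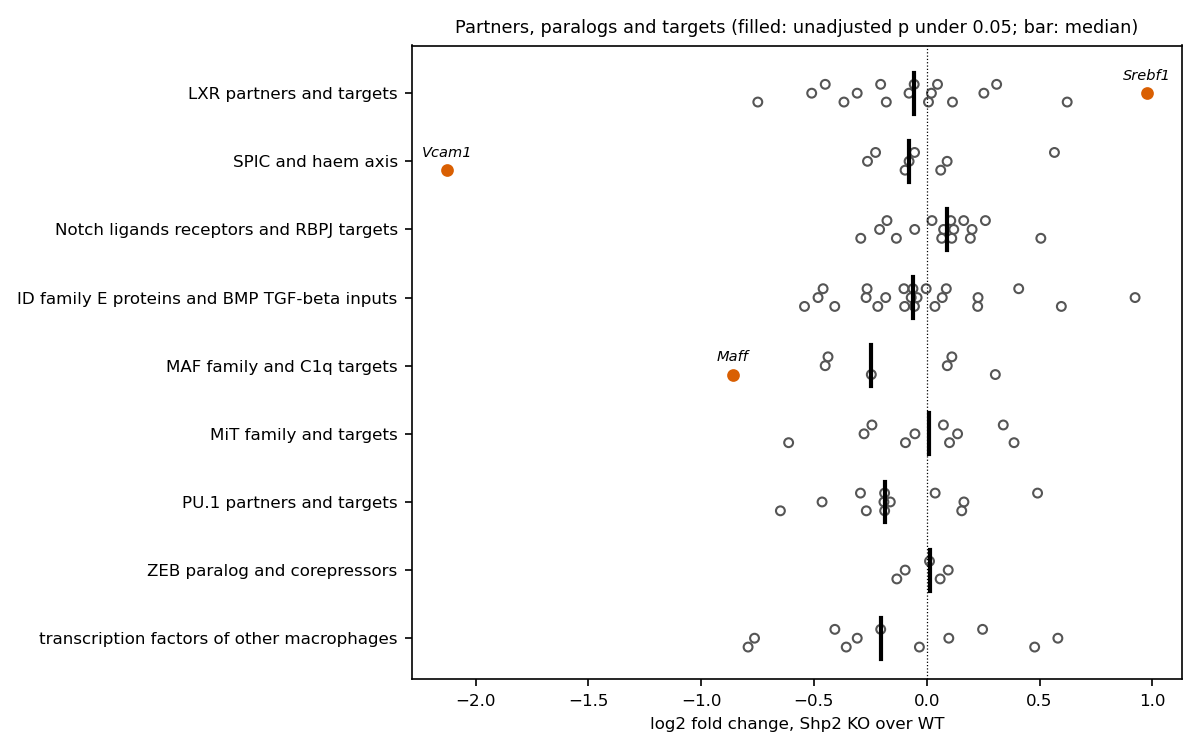
Log2 fold change, knockout over WT, of every tested gene in the lists around the transcription factors, with a bar at each list's median. The list medians lie between -0.25 and 0.09, and Vcam1 of the SPIC and haem axis is the lowest point at -2.13.

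Markers of other cells of the fraction were compared in the same fit, since several of the factors are not restricted to macrophages. The 14 markers of monocytes and recruited macrophages summed to 1061, 1639 and 881 CPM in knockout and to 763, 720, 1041 and 1005 CPM in WT. That sum leans on Plac8 (478 to 1058 CPM in knockout, 255 to 572 in WT) and Fn1 (222 to 269 and 155 to 406). Of the 14 log2 fold changes, 9 were above 0 and 5 below, with a median of 0.07. At an unadjusted p under 0.05, edgeR gave 3 of the 14 higher and 0 lower, against 2.27% and 2.35% of all genes. Among them Cx3cr1, the fractalkine receptor, was at 12.2, 13.7 and 23.9 CPM in knockout libraries and at 5.85, 3.36, 3.24 and 4.96 CPM in WT (log2 fold change 1.92 ± 0.32, SE; adjusted p = 0.267, edgeR), and it passed in DESeq2 (adjusted p = 3.69e-05) and in voom with quality weights (0.0427). Ly6c2, of classical monocytes, had -0.09 ± 0.31. In the remaining lists the genes given are the defining gene and the gene of smallest p, which may be the same, and the values in brackets are log2 fold changes with their SE. Zeb2 is also expressed by monocytes, and their part in the Zeb2 values was not tested. Neutrophil markers summed to 93.8 to 376 CPM in knockout and 61.5 to 141 CPM in WT, with 2 of 9 tested genes higher and 2 lower at that p; Ltf (-1.69 ± 0.45) was among the lower ones, and S100a8 (1.16 ± 0.53) missed that p at 0.0520 in edgeR. Sums of 12 dendritic cell markers were 582 to 689 CPM in knockout and 552 to 640 CPM in WT, with none at that p (Flt3 -0.45 ± 0.32). T and NK cell markers gave 239 to 611 CPM in knockout and 310 to 898 CPM in WT, with 2 of 14 lower, Klrb1c (-0.88 ± 0.33) among them and Cd3d (0.04 ± 0.42) not. B and plasma cell markers gave 259 to 474 CPM in knockout and 321 to 772 CPM in WT.

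Among structural cells, 0 of 16 sinusoidal endothelial markers were at an unadjusted p under 0.05, with a median of -0.21 (Stab1 0.44 ± 0.40, Lyve1 -0.84 ± 0.45). Stellate cell and fibroblast markers summed to 1491 to 2349 CPM in knockout and 1728 to 2256 CPM in WT, with 2 of 14 higher, Col3a1 (0.58 ± 0.20) among them and Lrat (0.60 ± 0.29) not. Cholangiocyte markers summed to 78.8 to 130 CPM in knockout and 66.3 to 90.9 CPM in WT (Krt19 0.54 ± 0.46, Cldn7 0.88 ± 0.40), with 0 of 7 at that p. Hepatocyte markers summed to 18879 to 40796 CPM in knockout and 20648 to 61644 CPM in WT, so hepatocyte RNA was present in every library, with 1 of 12 lower at that p, Tat (-1.97 ± 0.57), which passed the threshold in DESeq2 (adjusted p = 0.0263), and with Alb at -0.21 ± 0.51. Erythroid and megakaryocyte markers summed to 52.5 to 83.8 CPM in knockout and 32.1 to 138 CPM in WT, with 1 of 7 higher, Pf4 (1.17 ± 0.45), and with Hba-a1 at 0.04 ± 0.83. The lists share genes, among them the C1q genes (MAF list and general macrophages), Slc40a1 (SPIC and haem axis and Kupffer cells), Cd5l (LXR and Kupffer cells) and Bmp2 (BMP list and endothelium). No gene of these lists was called by edgeR.

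The genes whose levels followed each factor most closely across the 7 libraries were ranked by Pearson's r of log2 CPM over 12156 genes, as a description. Nr1h3 went with Gapdh (r = 0.987) and Eno1 (0.980), both enzymes of glycolysis, and with Psmd4 (0.974), a proteasome subunit. Zeb2 went with Fgr (0.946), a myeloid Src-family kinase, and with Ncapg2 (0.938), a condensin subunit, and Diaph3 (0.923), a formin, and these values stayed at 0.969, 0.990 and 0.988 without WT replicate 2 and knockout replicate 3. Maf went with Tjp1, a tight junction protein (0.995), Tmed10 (0.995) and Pros1 (0.993), and without those 2 libraries the values were 0.768, 0.738 and 0.787, so the likeness was weaker without them. Spic went with Ufc1 (0.990), 1110019D14Rik (0.976) and Gm2788 (0.974), over a range of levels no wider than 1.28-fold. Id3 went with Homer3 (0.992), Gas8 (0.991) and Cracr2b (0.989). The closest genes to Tfec were Tacc3 (0.980), Nr2c2ap (0.975) and Dph3 (0.973), those to Rbpj were Chsy1 (0.987), Thumpd1 (0.983) and Mcl1 (0.982), and those to Spi1 were Atxn7l1 (0.995), Mvp (0.989) and Unc93b1 (0.987). Across the 7 libraries, which differ in depth and composition, the best of 12156 genes reached an r of 0.946 or more for every factor.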

How the data were processed

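The values the authors deposited are raw counts of reads per gene, in whole numbers, for 3 knockout and 4 WT libraries. Per the labels' protocols, total RNA was extracted with an RNeasy kit and libraries were made with the TruSeq RNA v2 kit. FastQC 0.11.9, STAR 2.7.10a, SAMtools 1.9, featureCounts 2.0.3 and GRCm39 are named in the submitters' processing notes, while the annotation and counting settings used are not stated there. Genes were kept by filterByExpr (minimum count 10, minimum total 15), leaving 14077, and tested with edgeR 4.0.16 (R 4.3.3; TMM factors, robust quasi-likelihood fit, group as the only term), with Benjamini-Hochberg adjustment over all of them. CPM values are scaled by TMM (prior count 2 for log2 CPM). The labels do not say that libraries came from separate mice, so p-values reflect spread among libraries, which may be technical. Between any pair of libraries counts differed by far more than counting noise.

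Replicates were numbered within a group in accession order. The fits were tested on simulated counts in which chosen genes were given a known shift. Where the shift was 2-fold, edgeR recovered 18 out of 99 such genes, voom 19 and DESeq2 36. Where it was 4-fold, the numbers were 88, 87 and 93 out of 97. Counts were drawn separately for each gene, without deviations shared across genes such as those of knockout replicate 3 and WT replicate 2. Recovery in the deposited counts may therefore be lower. There edgeR called 0 genes, and Cd163, at a log2 fold change of -3.41, was not called. Unshifted genes were called 9 times by edgeR, 9 times by voom and 31 times by DESeq2. A gene that passes in DESeq2 and not in edgeR is to be read with that in mind. Alternatives were DESeq2 1.42.0, limma 3.58.1 (voom, without and with quality weights), other scalings and filters, a threshold of 0.1, and leaving out libraries. The members and the lists (9 around the factors, 12 of cell type markers) were chosen with earlier results of these data known. Counts within them are therefore descriptions, not tests. All 8 factors are named; each list around them is represented by its 2 genes of smallest p, each marker list by its defining gene and that of smallest p, and each factor by its 3 most alike genes of at least 2 CPM. Of the list genes, 3 had no row and 9 were too low to test. Of the genes this rule names, 2 are not reported here.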

Additional observations from a re-analysis of the deposited data

Results flagged for a closer look

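Maf was at 1001 CPM in WT replicate 2, against 390 to 454 CPM in the other 3 WT libraries, a gap that set this library apart within its group. Knockout libraries were at 403 to 447 CPM.

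Rbpj was at 23.4 CPM in WT replicate 4, against 39.2 to 41.6 CPM in the other WT libraries. Knockout libraries were at 25.0 to 36.6 CPM, between these.

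The summed level of sinusoidal endothelial markers was 19067 CPM in WT replicate 2, against 6950 to 9018 CPM in the other WT libraries, and 7814 to 11393 CPM in knockout libraries. These are 3 of 28 sets of WT values examined, and chance sets apart about 1 in 20; knockout groups of 3 were not examined in this way.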

How the results depend on the processing

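The number of the 8 factors called was 0 in every alternative run. The number of genes called over the whole table, 0 in edgeR, was 66 with DESeq2 (779 at an unadjusted p under 0.05, against 650 in edgeR), 9 with voom and quality weights (1582), 0 with voom alone (636), 3 with library size only, 3 with no low-count filter, 1 when scaled on general macrophage markers, 2 without WT replicate 2 and knockout replicate 3 together, and 0 with any single library left out. In the SPIC and haem axis 1 gene, Vcam1, was called with DESeq2 and 1, the same gene, with voom and quality weights. Spic, Maf, Zeb2 and Tfec kept their sign in all 18 alternatives.

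With single libraries left out, log2 fold changes ranged from -0.40 to 0.18 for Nr1h3, 0.06 to 0.18 for Spic, -0.34 to 0.86 for Id3, -0.58 to -0.01 for Maf, 0.45 to 0.66 for Zeb2, 0.19 to 0.43 for Tfec, -0.33 to -0.03 for Rbpj and -0.11 to 0.47 for Spi1. The sign turned for Nr1h3 with upper quartile factors (0.012) and without knockout replicate 1 (0.18), knockout replicate 2 (0.05) or WT replicate 4 (0.16). It turned for Id3 with voom and quality weights (-0.15), without knockout replicate 3 (-0.34) and without that library and WT replicate 2 (-0.24), for Rbpj without that pair (0.031), and for Spi1 without knockout replicate 3 (-0.11). The cause was not tested. Zeb2 was at an unadjusted p under 0.05 in 12 of 18 alternatives, and not with library size only or without knockout replicate 1, knockout replicate 2, WT replicate 1, WT replicate 3 or WT replicate 4.

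With Kupffer cell markers in place of general macrophage markers, log2 ratios moved to 0.60 for Nr1h3, 0.76 for Spic, 0.35 for Maf, 1.25 for Zeb2, 0.51 for Rbpj, 0.95 for Spi1, 1.16 for Id3 and 0.94 for Tfec; the Kupffer marker sum is itself lower in knockout libraries. No paired analysis was possible because the numbers in the labels are not shared between the groups.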

Other observations

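Between the factors themselves, Pearson's r of log2 CPM over the 7 libraries was above 0 for 13 of 28 pairs and above 0.8 for 1. That pair was Id3 and Spi1 (r = 0.87), both highest in knockout replicate 3, and r was 0.03 without that library and WT replicate 2. Over those 5 libraries 1 other pair, Maf and Rbpj, was above 0.8 (r = 0.82, against 0.38 over 7 libraries). The strongest pair of either sign over 5 libraries was Spic and Maf, at r = -0.97, with r = -0.78 and Spearman's rho = -0.96 over 7. It is the most extreme of 28 pairs, and both genes varied little over those 5 libraries. Spic ran from 29.9 to 35.9 CPM and Maf from 390 to 454 CPM. All pairs share the same libraries, and these values are given as a description with no test.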
